A study of Mus musculus with 32 samples.

Results

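The genes described here encode the extracellular matrix, the protein mesh outside cells, and the receptors and enzymes that work on it. They were chosen by name from protein-coding genes in the differential expression tables of 4 mouse organs: collagens (Col), laminin chains (Lama, Lamb, Lamc), integrins (Itga, Itgb), the Adamts family, and tenascin C (Tnc), fibronectin (Fn1), fibrillin 1 (Fbn1) and nidogen 1 (Nid1), leaving out Itgb2l. This gave 58 genes, called members below, of 10055 genes in any table, 8156 of them protein-coding. Of these, 34 were listed for liver, 28 for ileum, 10 for duodenum and 9 for jejunum. There were 40 members in 1 table, 14 in 2, 3 in 3 (Tnc, Adamts1 and Lama3) and 1, Itga4, in all 4. A further 56 of the 114 annotated protein-coding genes whose names fit were in no table, among them Col1a2, Col3a1 and the common integrin chain Itgb1, and were not analysed here. Of the members, 3 share only the name pattern: Col4a3bp encodes a ceramide transfer protein, and Itgb1bp1 and Itgb1bp2 encode proteins that bind an integrin tail.

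Fibrillar collagens form the tensile fibres of connective tissue, while type IV collagen, laminins and nidogen build the basement membrane, the thin sheet under epithelia and around vessels. Integrins are pairs of alpha and beta chains that span the cell membrane and tie matrix outside to the cytoskeleton inside. In the gut, the pair encoded by Itga6 and Itgb4 binds laminin in hemidesmosomes, the anchors of epithelial cells to the basement membrane. In liver, hepatocytes secrete fibronectin into plasma, and stellate and endothelial cells make much of the local matrix. ADAMTS proteins are secreted metalloproteases, several of which cut proteoglycans or trim collagen precursors.

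The study compared male mice lacking ketohexokinase (Khk KO), the enzyme that phosphorylates fructose, with wild-type (WT) male mice, to ask how fructose metabolism bears on iron handling. Polyadenylated RNA was sequenced from 32 libraries of the liver and of the duodenum, jejunum and ileum, with 4 Khk KO and 4 WT libraries in each. The labels used here give no strain, age, diet or design of the deleted allele, and do not say which libraries came from 1 mouse. If libraries of a group were not separate mice, the p-values measure only the spread between these samples.

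Each organ had its own table with read counts, counts divided by a size factor per library (normalised counts), FPKM (a level per gene length and library size) and the authors' own test. Genes were listed only where the unadjusted p of that test was under 0.05, so every member had to differ to be listed. Per library, listed genes held 7505439 to 14331517 reads in liver, 6531593 to 9149003 in ileum, 1722220 to 3549978 in duodenum and 3053896 to 4325568 in jejunum. Khk itself was lower in all Khk KO than in all WT libraries of each organ, at most 1000.3 against at least 5784 normalised counts in liver and at most 122 against at least 1174 in ileum. In duodenum the same limits were 736 and 9414, and in jejunum 837 and 5579. Hepatocyte markers in the liver table (5 of 7 were listed) summed to 305342 to 354272 normalised counts per library in Khk KO and 323904 to 465634 in WT, and the authors' deposited table called Apoa1, Ttr and Serpina1a lower and Tat higher. The intestinal epithelium markers in the ileum table summed to 164645 to 327148. In these whole-tissue libraries fewer cells of a type and less RNA per cell cannot be told apart.

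Most listed members were higher in Khk KO, in all 4 organs: 32 of 34 in liver, 27 of 28 in ileum, 10 of 10 in duodenum and 8 of 9 in jejunum. In the authors' deposited table at an adjusted p under 0.05, 23 liver members were called higher and 1 lower, where 35.8% of all genes in the table were called higher and 32.6% lower. Ileum members called in the authors' deposited table numbered 13 higher and 0 lower, where 27.1% of its genes were called higher and 21.2% lower. Tnc was the 1 duodenum member called higher in the authors' deposited table, with 0 lower, against 1.28% and 0.957% of its genes. None of the jejunum members was called in the authors' deposited table (0 in either direction), against 2.2% of its genes higher and 0.912% lower. All 4 Khk KO values lay above all 4 WT values for 20 members in liver, 18 in ileum, 3 in duodenum and 6 in jejunum. The same held for 34.3% of all listed genes in liver, 36.9% in ileum, 20% in duodenum and 33% in jejunum. Calls among genes of similar length are given below.

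The counts were fitted again with edgeR's quasi-likelihood test, with the authors' size factors and the adjustment spread over as many genes as the authors had adjusted. In liver 17 of the 33 members that passed its filter on low counts had an adjusted p under 0.05, 16 of them higher, where 23.2% of all genes tested were called higher. In ileum it called 10 of 28, all higher, against a share of 21.8%. In duodenum and jejunum edgeR called 0 members, with 7 members in each at an unadjusted p under 0.05, and the share over all genes was 0.0711% and 0.0489%. DESeq2 called 22 of 33 members in liver, 18 of 28 in ileum, 1 of 10 in duodenum and 1 of 8 in jejunum, against 69.9%, 66.3%, 2.35% and 11.2% of all genes tested in either direction, in the same order. The liver count depended on which library was left out: it was 0 without Khk KO replicate 2, 1 to 3 without any other Khk KO library or without WT replicate 2 or 4, 13 without WT replicate 3 and 24 without WT replicate 1. The ileum count was 3 to 5 without any 1 Khk KO library or without WT replicate 2 or 3, 12 without WT replicate 4 and 14 without WT replicate 1. Calls over all genes tested moved too. In liver they were 2807 of 5738 with all libraries, 19 of 5773 without Khk KO replicate 2 and 4879 of 5833 without WT replicate 1. In ileum they were 1585 of 4788, 452 of 4827 without Khk KO replicate 2 and 2579 of 4859 without WT replicate 1.

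Matrix genes are long, and gene length went with fold change in these tables. The median gene length was 8254 bases for the liver members against 4590 for all protein-coding genes of the table, and 9219 against 4491 in ileum. In the authors' deposited table the median log2 fold change of members was 0.90 in liver, 0.66 in ileum, 0.52 in duodenum and 0.64 in jejunum, against 0.42, 0.30, -0.33 and 0.35 for all listed genes. For protein-coding genes alone it was 0.30, -0.29, -0.34 and -0.27. The sign of these medians turns on few genes. In ileum 51.3% of all listed and 48.9% of protein-coding genes were higher, and in jejunum 54.0% and 49.3%. Other protein-coding genes in the members' interquartile range of length had medians of 0.71, 0.56, 0.34 and 0.45 in the authors' deposited table in the same order. Of those other long genes, 90.7% were higher in Khk KO in liver, 91.5% in ileum, 74.7% in duodenum and 89.3% in jejunum. In liver 809 of these 1201 genes were called higher and 67 lower at a deposited adjusted p under 0.05. In ileum the calls were 443 higher and 29 lower of 763. Called in either direction were 72.9% of these genes against 70.6% of members in liver, and 61.9% against 46.4% in ileum. Neither organ thus had a larger share of members called than of these genes. In duodenum the shares were 0.667% against 10% (1 member), and in jejunum 2.48% against 0%.

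**Figure D1:**
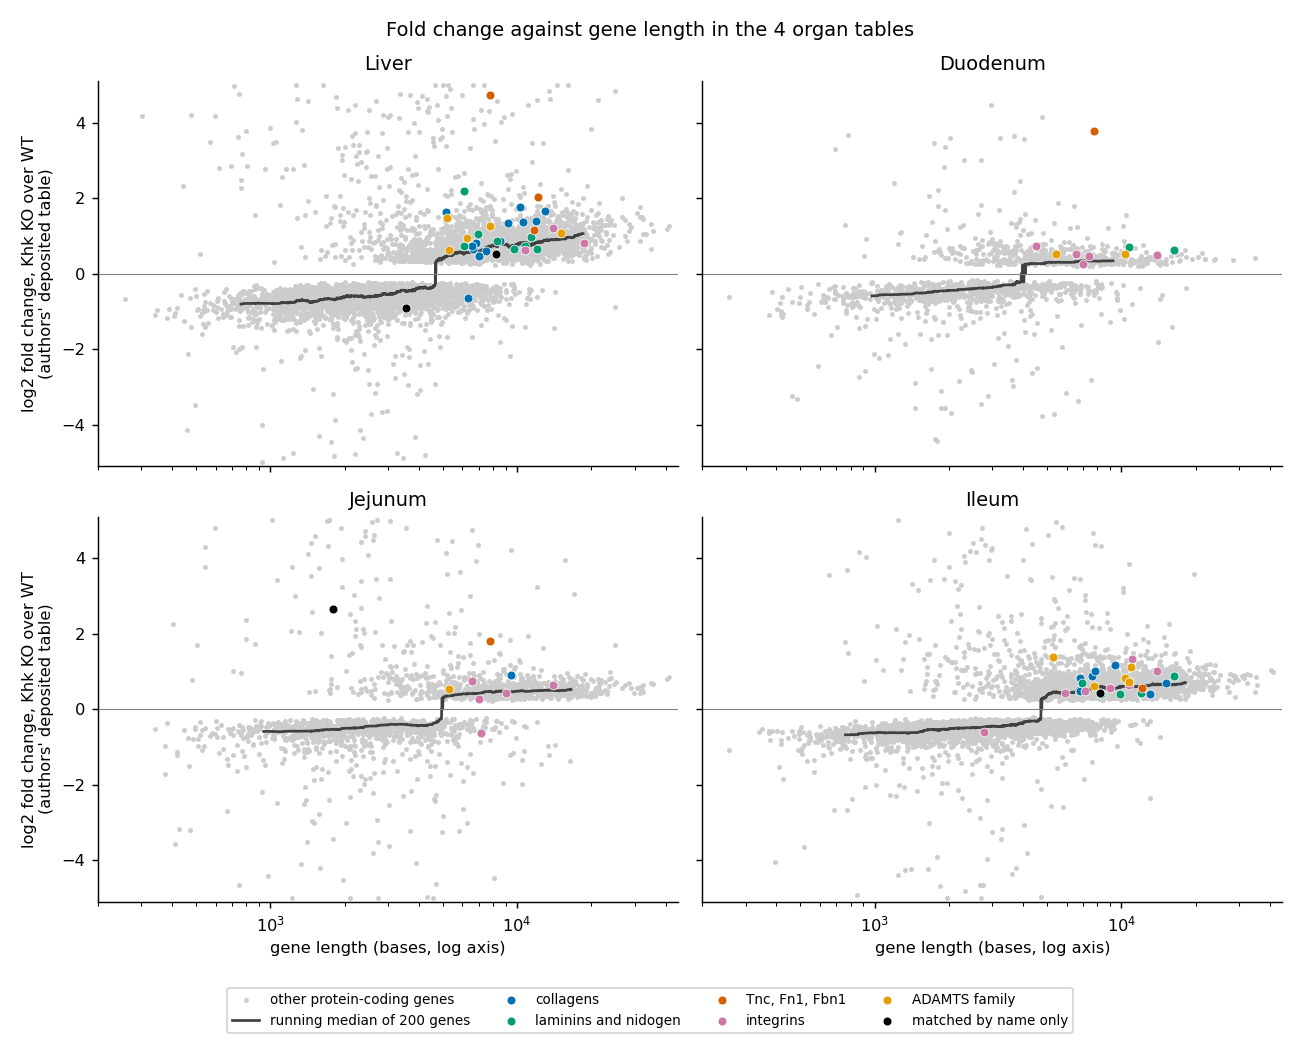
Log2 fold change between genotypes from the authors' deposited table (vertical axis, above 0 where Khk KO is higher, drawn up to 5 in size, with larger values placed at the limit) against gene length in bases (log axis, drawn from 200 bases up), 1 panel per organ. Grey points are other protein-coding genes, the dark line is the running median of 200 of them, and coloured points are the members, most of which sit among long genes on the upper side; Tnc is the orange point far above the line in liver, duodenum and jejunum.

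Each member was therefore set beside the 200 other protein-coding genes of its table closest in length. The median difference from these neighbours, on the log2 scale of the authors' deposited table, was 0.20 in liver, 0.06 in ileum, 0.22 in duodenum and 0.17 in jejunum. Computed from each Khk KO library against the WT mean, its SD over 4 libraries was 0.13, 0.18, 0.16 and 0.17 in the same order. The ileum difference was thus smaller than the spread over Khk KO libraries, and that of jejunum about equal to it. Over single Khk KO libraries the ileum value ran from -0.21 to 0.18, so its sign differed between libraries. The spread among WT libraries is not part of this SD. Members above their neighbours' median numbered 24 of 34 in liver, 18 of 28 in ileum, 9 of 10 in duodenum and 6 of 9 in jejunum. Without WT replicate 1 the liver difference was 0.08, and without WT replicate 4 that of ileum was 0.02.

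When the trend with gene length was taken out of each library before the edgeR test, few members remained past the threshold. These were Col27a1 and Lamc3 in liver, where 6.9% of all genes tested were called higher, and Adamts1 in ileum, where the share was 4.85%. Tnc was the member called in duodenum, against 0.142% of genes, and 0 were called in jejunum, against 0.0489%, with 1 at an unadjusted p under 0.05. The correction moved the median log2 fold change over all tested genes from 0.30 to 0.00 in liver and from -0.28 to -0.01 in ileum. It moved that of the members from 0.87 to 0.29 in liver and from 0.66 to 0.16 in ileum. Any part of a genotype effect that runs along with length is removed by it too, and the trend was learned from genes listed because they differed.

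**Figure D2:**
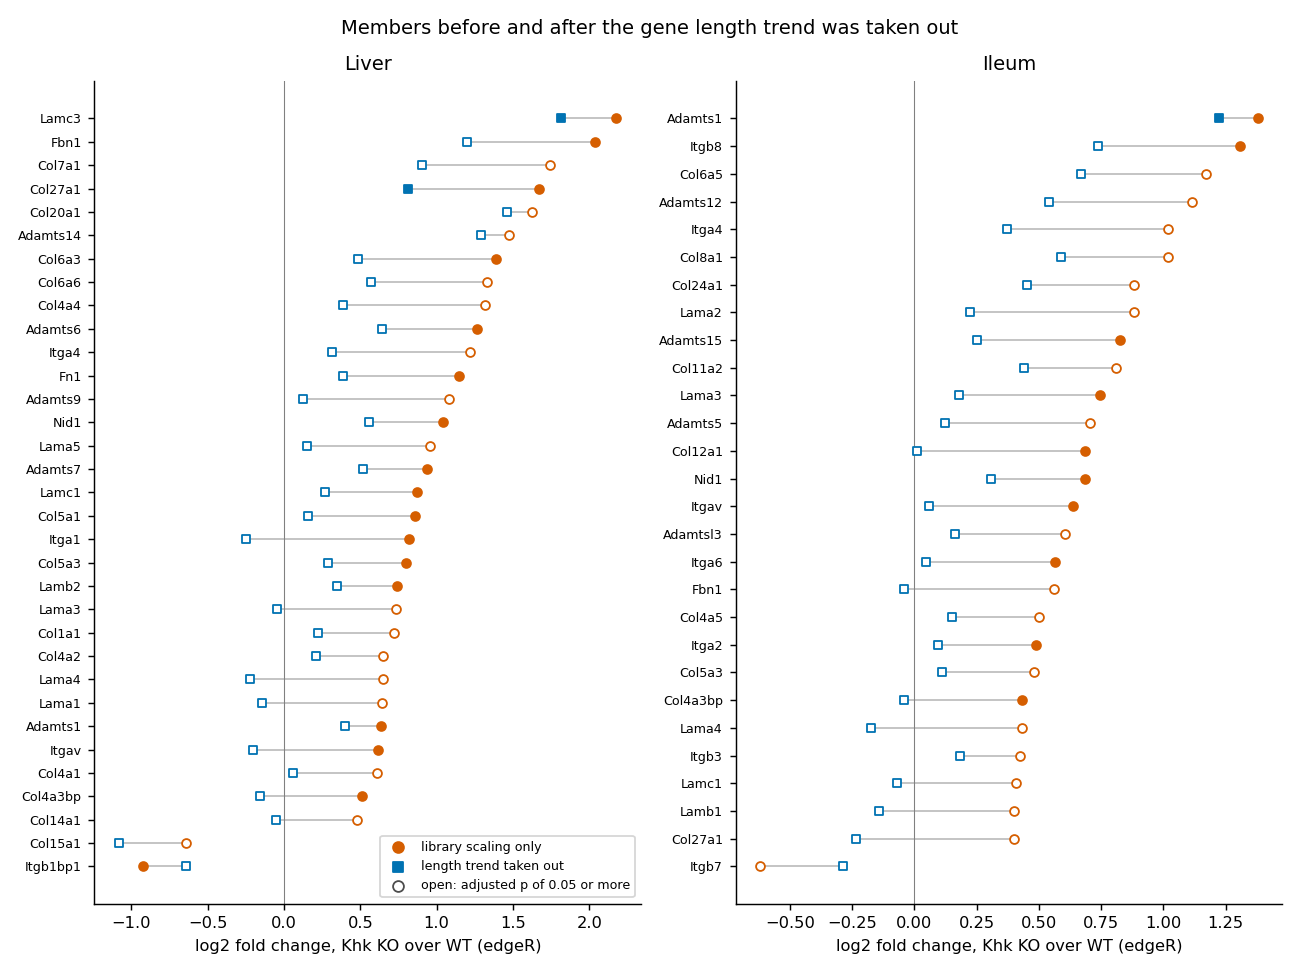
Log2 fold change between genotypes from edgeR (above 0 where Khk KO is higher) for each member tested in liver and ileum, with library scaling only (circles) and with the gene length trend taken out (squares), joined by a line. Filled symbols have an adjusted p under 0.05; after the correction the filled ones are Lamc3 and Col27a1 in liver and Adamts1 in ileum.

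The members found in most tables were Itga4, Tnc, Adamts1 and Lama3. Promoters of Tnc, Itga4 and Adamts1 are shown so that genes listed in several organs can be compared at the sequence level. They run from 250 bases before to 50 after the RefSeq start on GRCm38.p6, 5′ to 3′ on the gene's strand. Capitals mark the TATA box letters TATAAA and the GC box letters GGGCGG where they occur on that strand. The positions are chr4:64046966-64047265 on the minus strand for Tnc, chr2:79255176-79255475 on the plus strand for Itga4 and chr16:85803064-85803363 on the minus strand for Adamts1. Tnc has another RefSeq start, at 64046936, whose overlapping window holds the same motifs and is not shown.
Tnc: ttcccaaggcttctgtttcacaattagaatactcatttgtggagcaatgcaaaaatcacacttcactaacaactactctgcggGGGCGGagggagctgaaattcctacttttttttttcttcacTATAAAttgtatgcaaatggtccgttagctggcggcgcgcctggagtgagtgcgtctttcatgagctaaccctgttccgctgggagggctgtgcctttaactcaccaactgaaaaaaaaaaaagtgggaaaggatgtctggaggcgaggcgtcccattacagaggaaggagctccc
Itga4: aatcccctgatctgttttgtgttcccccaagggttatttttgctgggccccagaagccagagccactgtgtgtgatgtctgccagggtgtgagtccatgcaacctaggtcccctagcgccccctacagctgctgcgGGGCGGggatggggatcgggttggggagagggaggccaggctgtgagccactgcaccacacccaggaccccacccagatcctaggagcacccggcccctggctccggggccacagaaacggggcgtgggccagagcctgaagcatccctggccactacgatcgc
Adamts1: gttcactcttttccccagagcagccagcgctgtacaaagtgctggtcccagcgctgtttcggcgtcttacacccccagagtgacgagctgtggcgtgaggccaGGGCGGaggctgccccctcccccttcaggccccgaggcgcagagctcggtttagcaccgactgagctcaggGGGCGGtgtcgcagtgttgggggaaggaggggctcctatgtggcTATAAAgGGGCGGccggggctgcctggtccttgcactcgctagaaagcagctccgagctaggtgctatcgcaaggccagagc
Tnc and Adamts1 hold both motifs and Itga4 the GC box alone. RefSeq promoters were matched for 37 of the 58 members. On either strand, TATAAA was in 3 of the 37 (8.11%; Adamts1, Col11a2 and Tnc) against 15.7% of 27025 genes with a promoter. GGGCGG was in 24 (64.9%) against 38.2%, and the AP-1 letters TGACTCA in 0 against 5.95%. None of the 3 motifs contains another, and a match describes these windows only.

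Tnc (ENSMUSG00000028364, chromosome 4, 63959785 to 64047015, minus strand) encodes tenascin C, a large matrix glycoprotein made at low levels in most resting adult tissue and induced in injury and remodelling. In duodenum its normalised counts were 389, 597, 301 and 602 in Khk KO and 12.4, 35.6, 51.9 and 37.6 in WT. Every Khk KO library was above every WT library, and the mean was 13.7 times higher. The log2 fold change was 3.77 ± 0.41 (SE) in edgeR, with an adjusted p of 0.0684. The adjusted p was 0.0434 in edgeR with the length trend taken out, where the log2 fold change was 3.57, and 3.25e-17 in DESeq2. The authors' deposited table gave an adjusted p of 1.86e-24, and the value exceeded all 200 length neighbours.

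In jejunum Tnc had 458, 712, 404 and 744 normalised counts in Khk KO, while WT gave 445, 100, 45.7 and 72.8. The WT replicate 1 value lay among the Khk KO values and the other 3 WT libraries lay far below. The log2 fold change was 1.80 ± 0.63 (SE) and the edgeR adjusted p 0.252. Without WT replicate 1 these became 2.99 ± 0.31 and 0.0115. In liver Tnc was near the limit of detection, with 14, 23, 10 and 2 reads in Khk KO and 1, 0, 1 and 0 reads in WT. Summed over 4 libraries and scaled by the size factors, the ratio was 25.9, with a 95% interval of 6.81 to 220 from counting error alone. Its low counts kept it out of the edgeR test in liver, and the ileum table did not list it.

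Itga4 (ENSMUSG00000027009, chromosome 2, 79255426 to 79333123, plus strand) encodes the integrin alpha 4 chain, which is carried mainly by leukocytes and binds fibronectin and a vascular adhesion molecule. In jejunum its normalised counts were 253, 296, 257 and 233 in Khk KO and 174, 175, 157 and 162 in WT, with no overlap. In ileum they were 446, 472, 653 and 353 against 119, 268, 191 and 367, and the lowest Khk KO library fell under the highest WT library. In liver they were 113, 118, 57.1 and 81.8 against 47.1, 30.3, 13.6 and 69.3, again with 1 Khk KO library under the highest WT library. In duodenum they were 250, 160, 166 and 211 against 106, 116, 154 and 181, and the groups overlapped. The edgeR log2 fold changes were 1.22 ± 0.44 (SE) in liver, 1.02 ± 0.30 in ileum, 0.50 ± 0.22 in duodenum and 0.64 ± 0.15 in jejunum. None of the 4 had an edgeR adjusted p under 0.05: they were 0.0811, 0.0568, 0.838 and 0.252. The authors' deposited table called the liver and ileum rows, with adjusted p of 0.0263 and 0.0122. With the length trend taken out, the edgeR values came down to 0.32 in liver, 0.37 in ileum, 0.14 in duodenum and 0.12 in jejunum. Exons of Itga4 overlap those of Cerkl, on the other strand, over 8.04% of their bases, and the strandedness of the libraries is not known.

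Adamts1 (ENSMUSG00000022893, chromosome 16, 85793827 to 85803113, minus strand) encodes a protease that cuts the proteoglycans aggrecan and versican. In ileum its normalised counts were 283, 290, 424 and 593 in Khk KO and 131, 144, 156 and 179 in WT. The groups did not overlap, and the mean was 2.61 times higher. The edgeR log2 fold change was 1.38 ± 0.24 (SE, adjusted p = 0.0102), and 1.22 ± 0.23 (adjusted p = 0.0191) with the length trend taken out. It kept an edgeR adjusted p under 0.05 without any 1 of the 8 ileum libraries. In liver the values were 213, 246, 223 and 204 against 123, 108, 181 and 156, also without overlap, for a log2 fold change of 0.64 ± 0.20 (edgeR adjusted p = 0.0486). In jejunum they were 140, 119, 186 and 111 against 96, 76.9, 109 and 103, where the groups lay close together, with 0.53 ± 0.23 and an edgeR adjusted p of 0.275.

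Lama3 (ENSMUSG00000024421) encodes the laminin alpha 3 chain, part of the epithelial laminin that hemidesmosomes hold on to. In ileum its normalised counts were 872, 1042, 1224 and 1296 in Khk KO and 538, 553, 859 and 690 in WT, with no overlap, for a log2 fold change of 0.75 ± 0.18 (SE, edgeR adjusted p = 0.0297). In liver they were 180, 198, 211 and 237 against 185, 89.8, 103 and 120, where WT replicate 1 lay just above the lowest Khk KO library. In duodenum they were 138, 114, 159 and 103 against 41.2, 96, 70.3 and 106, with an overlap of 1 library from each group. The edgeR adjusted p was 0.055 in liver and 0.838 in duodenum. With the length trend taken out the values were -0.05 in liver, 0.44 in duodenum and 0.18 in ileum, each with an edgeR adjusted p of 1.

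**Figure D3:**
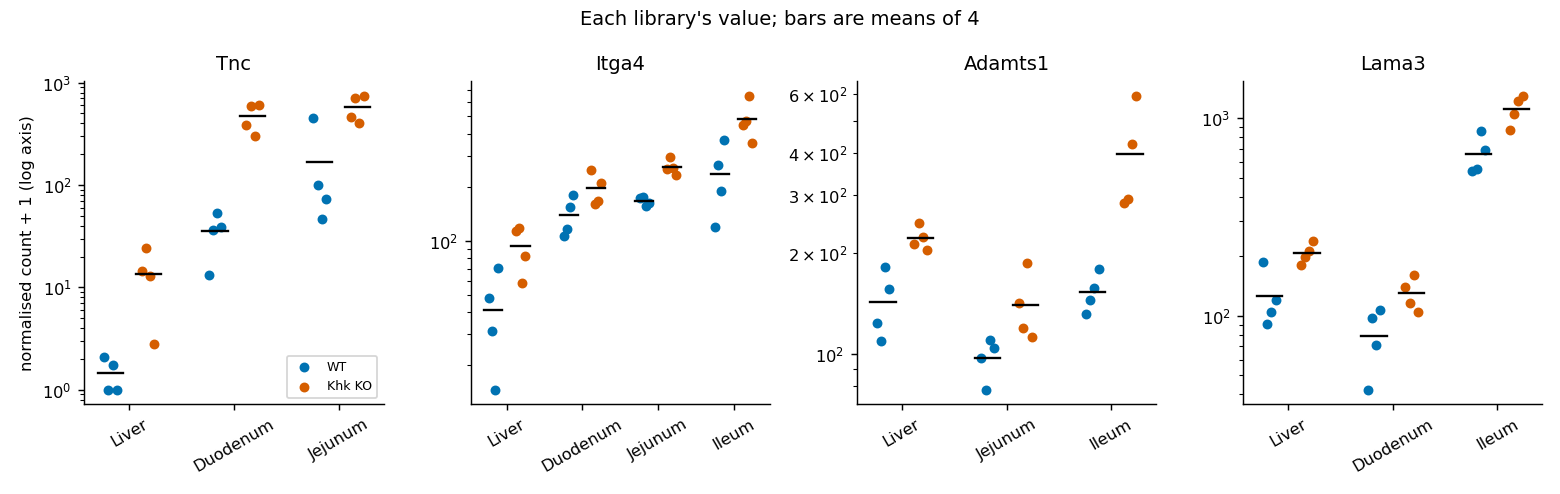
Normalised count plus 1 (log axis, with its own range in each panel) of Tnc, Itga4, Adamts1 and Lama3 in every library of the organs whose tables hold them, WT in blue and Khk KO in orange, with a bar at the mean of 4 libraries. The Tnc groups are far apart in duodenum, while in jejunum 1 WT library, at 445, lies among the Khk KO libraries; organs were normalised separately, so heights are comparable within an organ only.

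Among the other matrix glycoproteins, Fn1 (ENSMUSG00000026193, chromosome 1, 71585520 to 71653200, minus strand) was by far the most abundant member in liver, at 103 ± 48.9 FPKM in WT (SD, n = 4). The next by this length-scaled level were Col4a3bp at 7.04 ± 0.491 and Col5a3 at 6.64 ± 2.35 FPKM, which did not differ beyond their spread. Fn1 had 28095, 32840, 32626 and 30995 normalised counts in Khk KO and 23636, 12390, 7133 and 13182 in WT. The Khk KO libraries lay close together and above all WT libraries, which spread widely, with WT replicate 1 nearest to Khk KO. The mean was 2.21 times higher, a log2 fold change of 1.14 ± 0.28 (SE, edgeR adjusted p = 0.0235), which became 0.39 ± 0.14 (adjusted p = 0.189) with the length trend taken out.

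Fbn1 (ENSMUSG00000027204, chromosome 2, 125300594 to 125507993, minus strand) encodes fibrillin 1, the backbone of microfibrils. In liver it had 36.4, 79.3, 73.8 and 67.2 normalised counts in Khk KO and 18.6, 9.74, 6.05 and 28.5 in WT, without overlap. The log2 fold change was 2.03 ± 0.47 (SE, edgeR adjusted p = 0.0208), and with the length trend taken out 1.20 ± 0.42 (adjusted p = 0.177). In ileum, where it was more highly counted, the values were 1165, 970, 861 and 832 against 400, 717, 727 and 748. WT replicate 1 was well under the other WT libraries there. The edgeR log2 fold change was 0.56 ± 0.20 (adjusted p = 0.0881), and -0.04 after the length trend was taken out. An annotated gene on the other strand, Gm9913, shares 20.1% of the exon bases of Fbn1.

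Of the collagens, Col27a1 stood out in liver. It encodes a fibrillar collagen known from cartilage (ENSMUSG00000045672, chromosome 4, 63214004 to 63334991, plus strand). Its normalised counts were 1321, 1538, 1764 and 1361 in Khk KO and 690, 407, 291 and 494 in WT, without overlap, and the mean was 3.18 times higher. The log2 fold change was 1.67 ± 0.24 (SE, edgeR adjusted p = 0.011), and 0.81 ± 0.13 (adjusted p = 0.0117) with the length trend taken out. In ileum the same gene gave 738, 679, 521 and 681 against 352, 613, 542 and 478, with overlap. The authors' deposited table gave it a log2 fold change of 0.40 there, and its difference from its length neighbours was -0.22.

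Other fibrillar collagens rose in liver by less: Col5a1 by a log2 fold change of 0.86 ± 0.24 and Col5a3 by 0.80 ± 0.23 (edgeR adjusted p = 0.0363 and 0.0375). With the length trend taken out they stood at 0.16 and 0.29, and neither kept its call. Col1a1, the main chain of scar collagen, gave 57.6, 162, 170 and 115 normalised counts in Khk KO and 50.3, 73.6, 74.9 and 106 in WT, with overlap and an adjusted p of 0.124 in the authors' deposited table. The genes of its partner chain Col1a2 and of Col3a1 were not in the liver table. Col4a1 and Col4a2, the common chains of basement membrane collagen, had values of 368 to 550 against 176 to 386 and of 252 to 409 against 113 to 287 in liver. The groups overlapped for both, and the edgeR adjusted p of Col4a1 was 0.1. Col15a1, a basement membrane collagen, was the only collagen listed in liver that was lower, at 39.3, 71.3, 89.2 and 60.9 against 90.8, 120, 72.6 and 123. Its log2 fold change was -0.64 ± 0.29 (SE, edgeR adjusted p = 0.166), and -1.08 ± 0.29 (adjusted p = 0.0577) with the length trend taken out.

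Col6a3, a chain of the beaded filament collagen VI, had 83.4, 212, 144 and 148 normalised counts in liver Khk KO and 73.3, 35.7, 66.5 and 48.4 in WT, and rose by 1.39 ± 0.32 on the log2 scale (SE, edgeR adjusted p = 0.0209). The groups did not overlap, although Khk KO replicate 1 was close to WT. With the length trend taken out Col6a3 stood at 0.49 (edgeR adjusted p = 0.893). In ileum Col12a1, a collagen that decorates fibrils, had 1109, 941, 1011 and 936 against 607, 605, 600 and 672, well apart and tight within each group. Its log2 fold change was 0.69 ± 0.11 (SE, edgeR adjusted p = 0.00741) and fell to 0.01 ± 0.10 with the length trend taken out, close to the value of genes of its length. Col6a5 in ileum had 136, 156, 107 and 189 against 34.8, 41.3, 92.2 and 92.1, without overlap, with 1.17 ± 0.34 and an edgeR adjusted p of 0.0541. In jejunum Col6a5 had 95.9, 105, 127 and 126 against 19, 73.6, 63.5 and 84.2, also without overlap, with 0.92 ± 0.40 and an edgeR adjusted p of 0.268. Col24a1 in ileum gave 0.88 ± 0.29 (edgeR adjusted p = 0.0757).

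Laminins and nidogen were listed in 3 of the organs, and each of the 8 in liver, 2 in duodenum and 6 in ileum was higher in Khk KO. The authors' deposited table called 6, 0 and 2 of them, where 35.8%, 1.28% and 27.1% of all listed genes were called higher, in the same order. Nid1 (ENSMUSG00000005397, chromosome 13, 13437551 to 13512269, plus strand) encodes nidogen 1, which links the laminin and collagen IV networks. In ileum it had 1562, 1574, 1555 and 1590 normalised counts in Khk KO and 1048, 913, 920 and 1030 in WT. The groups were far apart for their spread, and the log2 fold change was 0.68 ± 0.10 (SE, edgeR adjusted p = 0.00639). In liver it had 226, 270, 259 and 222 against 160, 117, 60.5 and 140, also without overlap, with 1.04 ± 0.26 (SE, edgeR adjusted p = 0.0274). With the length trend taken out these became 0.31 ± 0.08 in ileum and 0.56 ± 0.20 in liver, with edgeR adjusted p of 0.0744 and 0.183.

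Lamc3 in liver (ENSMUSG00000026840, chromosome 2, 31887291 to 31946539, plus strand), picked out after its values were seen, encodes the laminin gamma 3 chain. It had 64.3, 86.4, 67.8 and 58.1 normalised counts in Khk KO and 25.2, 6.49, 10.6 and 19 in WT, without overlap, and the mean was 4.52 times higher. The log2 fold change was 2.18 ± 0.40 (SE, edgeR adjusted p = 0.016), and it stayed at 1.82 ± 0.36 (adjusted p = 0.0199) with the length trend taken out. An annotated antisense gene shares 6.27% of its exon bases. Lamc1, the common gamma chain, rose in liver by 0.87 ± 0.25, and Lamb2 by 0.74 ± 0.22 (SE, edgeR adjusted p = 0.0389 and 0.0437). With the length trend taken out they stood at 0.27 and 0.35 (edgeR adjusted p = 0.633 and 0.767). Lama5 gave 0.96 ± 0.31 with an edgeR adjusted p of 0.0564. In ileum Lamc1 was above all WT libraries in each Khk KO library, at 1633 to 1740 against 1015 to 1569, while its difference from its length neighbours in the authors' deposited table was -0.18 on the log2 scale.

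The integrin chains of the gut epithelium were the most abundant members there. Itga6 (ENSMUSG00000027111, chromosome 2, 71745616 to 71858416, plus strand) stood at 25.4 ± 1.19 FPKM in WT jejunum and Itgb4 (ENSMUSG00000020758, chromosome 11, 115974709 to 116008412, plus strand) at 22.6 ± 1.98 FPKM (SD, n = 4), and the next listed member, Itgb6, at 3.20 ± 1.80 FPKM. In WT ileum Itga6 stood at 22.9 ± 1.98 FPKM, followed by Itgb7 at 9.38 ± 3.57, Lamb1 at 7.67 ± 1.59, Lamc1 at 7.34 ± 1.34 and Nid1 at 6.74 ± 0.360 FPKM, the last 4 within their spread. In WT duodenum Itgb4 led at 23.6 ± 0.736 FPKM, and Itgal followed at 1.62 ± 0.448 FPKM.

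In ileum Itga6 had 5636, 5476, 7796 and 6629 normalised counts in Khk KO and 4520, 3888, 4720 and 4113 in WT, without overlap, for a log2 fold change of 0.57 ± 0.14 (SE, edgeR adjusted p = 0.0362). In jejunum it had 4015, 4822, 5847 and 6152 against 4015, 3704, 3898 and 3920, where Khk KO replicate 1 was level with WT replicate 1. Its log2 fold change there was 0.42 ± 0.15 (edgeR adjusted p = 0.252). Itgb4 in duodenum had 3694, 3931, 4169 and 4555 against 3430, 3459, 3248 and 3479, without overlap but only 1.20 times higher on average. In jejunum Itgb4 had 2872, 3408, 3217 and 3514 against 2841, 2773, 2393 and 2726. With the length trend taken out, Itga6 was at 0.05 in ileum and -0.01 in jejunum, and Itgb4 at 0.05 in duodenum and -0.02 in jejunum, each with an edgeR adjusted p of 1.

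The alpha v chain Itgav, which pairs with several beta chains to bind fibronectin and vitronectin, rose in liver by 0.62 ± 0.18 and in ileum by 0.64 ± 0.16 on the log2 scale (SE, edgeR adjusted p = 0.0386 and 0.0329). Its difference from its length neighbours in the authors' deposited table was -0.20 in liver and 0.04 in ileum. The collagen receptor chain Itga1 rose in liver by 0.82 ± 0.22, and another, Itga2, in ileum by 0.49 ± 0.13 (SE, edgeR adjusted p = 0.0306 and 0.043). Neither kept its call with the length trend taken out, at -0.25 for Itga1 and 0.10 for Itga2 (edgeR adjusted p = 0.729 and 1). Itgb8 in ileum, with 55.2, 42.3, 39 and 26 against 14.9, 14.4, 11.4 and 24.8, gave 1.31 ± 0.37 (SE, edgeR adjusted p = 0.0494). Itgb6, an epithelial chain, was lower in jejunum Khk KO on average, at 266, 241, 240 and 238 against 691, 253, 320 and 271. The difference rested largely on WT replicate 1, since the log2 fold change was -0.64 ± 0.31 with it (SE, edgeR adjusted p = 0.33) and -0.19 without it.

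Of the leukocyte integrins, Itgal had 342, 295, 295 and 334 normalised counts in duodenum Khk KO and 185, 170, 215 and 305 in WT, and 280, 244, 278 and 249 against 86, 148, 153 and 235 in jejunum. The Khk KO libraries were above all WT libraries in jejunum but not in duodenum, with edgeR adjusted p of 0.256 and 0.838. Itgb7, the beta chain of gut-homing lymphocytes, was lower on average in ileum, at 353, 358, 503 and 202 against 354, 576, 421 and 817. Its groups overlapped, and the edgeR adjusted p was 0.209.

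Each of the listed ADAMTS proteases was higher in Khk KO: 5 in liver, 4 in ileum, 2 in duodenum and 1 in jejunum. Of these, edgeR called 3 in liver (Adamts1, Adamts6 and Adamts7) and 2 in ileum (Adamts1 and Adamts15). It called 23.2% of all genes tested higher in liver and 21.8% in ileum. Adamts7 in liver had 176, 200, 157 and 170 normalised counts against 107, 110, 69.6 and 81.6, without overlap, with a log2 fold change of 0.93 ± 0.21 (SE, edgeR adjusted p = 0.0203). Adamts15 in ileum had 333, 516, 424 and 594 against 291, 297, 192 and 273, also without overlap, with 0.82 ± 0.20 (SE, edgeR adjusted p = 0.0321). In duodenum Adamts15 overlapped between groups, at 166 to 290 against 111 to 189, and Adamts10 at 204 to 285 against 127 to 224. With the length trend taken out, Adamts7 stood at 0.52 in liver and Adamts15 at 0.25 in ileum. Only Adamts1 in ileum kept its call then. In liver the edgeR adjusted p with the trend taken out was 0.509 for Adamts1, 0.727 for Adamts6 and 0.153 for Adamts7.

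The genes that fit by name alone went different ways. Itgb1bp1 had 134, 113, 104 and 141 normalised counts in liver Khk KO and 177, 213, 324 and 217 in WT, and fell by 0.92 on the log2 scale (SE 0.22, edgeR adjusted p = 0.0225). At 3537 bases it was the shortest member in liver. Col4a3bp, of 8236 bases, rose by 0.51 ± 0.15 in liver and 0.43 ± 0.10 in ileum (SE, edgeR adjusted p = 0.0392 and 0.027), and lay below its length neighbours in both. It was at -0.16 in liver and -0.04 in ileum with the length trend taken out, each with an edgeR adjusted p of 1. Itgb1bp2 in jejunum, with normalised counts of 3.43 to 27.1 against 0 to 5.50, was kept out of the edgeR test by its low counts.

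Liver and ileum shared 11 listed members, each higher in Khk KO in both, and the authors' deposited table called 6 of them in both: Adamts1, Col4a3bp, Itga4, Itgav, Lama3 and Nid1. Of all genes listed in both tables, 28.2% were called higher in both. The difference between organs was not tested, since each table was normalised on its own. Log2 fold changes in the authors' deposited table were 2.04 in liver and 0.56 in ileum for Fbn1, 1.67 and 0.40 for Col27a1, and 0.64 and 1.38 for Adamts1.

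Other genes of the pathway moved in both directions. In liver 14 of 37 other matrix proteins were listed, with 9 called higher and 2 lower in the authors' deposited table. Of all genes listed in liver, 35.8% were called higher and 32.6% lower there. The higher ones included Tnxb, which encodes tenascin X, at 355 ± 75.3 normalised counts against 119 ± 13.5, and the basement membrane proteoglycans Hspg2, at 611 ± 37.9 against 301 ± 101, and Agrn, at 799 ± 21.02 against 458 ± 115 (SD, n = 4). The lower ones were Sparc, at 585 ± 54.4 against 861 ± 204, and Vtn, the plasma protein vitronectin, at 34885 ± 698 against 48999.8 ± 6419. Of 27 genes of collagen processing and turnover, 7 were listed in liver, with Timp3, a metalloprotease inhibitor, called higher, and P4hb and Serpinh1, which help fold collagen, called lower in the authors' deposited table. Timp3 stood at 556 ± 111 normalised counts against 236 ± 74.5, P4hb at 20579 ± 2212 against 31036 ± 5590 and Serpinh1 at 103 ± 20.2 against 199.9 ± 23.0 (SD, n = 4). The called genes lower in Khk KO were 2030 bases long for Vtn, 2443 for Serpinh1, 2861 for P4hb and 3788 for Sparc, while of those called higher Timp3 had 8144, Tnxb 12209 and Ntn4, which encodes netrin 4, 3741 bases. In edgeR 5 of the other matrix proteins were called higher and 1 lower, and 1 higher and 0 lower with the length trend taken out. Of the genes of collagen processing edgeR called 1 higher and 2 lower, and 0 with the length trend taken out, where 3 had an unadjusted p under 0.05. Over all genes tested in liver edgeR called 23.2% higher, and 6.9% with the length trend taken out. In either direction it called 2807 of 5738 genes, and 785 with the length trend taken out.

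Of 32 partners that tie integrins to the cytoskeleton or work beside them, 13 were listed in liver, with 11 called higher and 1, Cd151, lower in the authors' deposited table. The shares of all genes listed in liver were 35.8% higher and 32.6% lower. In edgeR 4 of these partners were called higher and 1 lower, 0 with the length trend taken out (3 had an unadjusted p under 0.05), and 0 without any 1 of the Khk KO libraries (11 or 12 had). Over all genes tested in liver, edgeR called 2807 with all libraries and 19 to 481 without 1 of the Khk KO libraries. Tln1, which encodes the talin that activates integrins, stood at 2038 ± 103 normalised counts against 1074 ± 420, and Ddr2, a collagen receptor kinase, at 107 ± 20.05 against 53.4 ± 19.8 (SD, n = 4). Of the 10 other matrix proteins listed in ileum, 3 were called higher (Postn, Vcan and Frem2) and 2 lower (Ecm1 and Vwa1) in the authors' deposited table. The shares of all genes listed in ileum were 27.1% and 21.2%. Of the 5 listed genes of collagen processing there, the authors' deposited table called Timp3 higher, at 1178 ± 248 normalised counts against 578 ± 206. Of the 9 listed adhesion partners in ileum, Vcl, Lims1 and Ddr2 were called higher and Bcar1 lower in the authors' deposited table. Vcl, which encodes vinculin, stood at 1587 ± 140 against 682 ± 180, and Vcan, the versican that Adamts1 can cut, at 175 ± 49.1 against 79.5 ± 19.3 (SD, n = 4). In ileum edgeR called 2 higher and 1 lower of the other matrix proteins, 1 higher of the genes of collagen processing and 2 higher of the partners. Taking out the length trend, it called 0 of the first list (1 had an unadjusted p under 0.05), 1 lower of the second, and 1 higher and 2 lower of the third. Over all genes tested in ileum edgeR called 21.8% higher, and 4.85% with the length trend taken out. In either direction it called 1585 of 4788 genes, and 476 with the length trend taken out. In duodenum 2, 1 and 2 genes of these lists were present and in jejunum 3, 3 and 4, and 0 of them were called in the authors' deposited table.

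Markers of cell types that make or carry these proteins moved as well. In liver the 4 listed endothelial markers (Kdr, Flt1, Tek and Stab2) of 10 summed to 2622 to 2788 normalised counts in Khk KO and 814 to 2159 in WT, and the authors' deposited table called all 4 higher. The 5 listed macrophage markers of 10 summed to 2937 to 4055 against 3832 to 11178, with 4 of them (Clec4f, Lyz2, C1qa and C1qb) called lower in the authors' deposited table. Of the fibroblast and stellate markers, 4 of 10 were listed in liver, with sums of 1933 to 3349 against 2203 to 3093, and the authors' deposited table called Pdgfrb and Reln higher and Des lower. Of the smooth muscle markers 4 of 10 were listed in liver, with sums of 1724 to 2631 against 507 to 1410, and the authors' deposited table called Synm and Mylk higher and Des lower. Mylk made up most of these sums, at 1797 ± 269 against 772 ± 357 (SD, n = 4). In jejunum the 4 listed smooth muscle markers (Acta2, Cnn1, Actg2 and Des) were each lower on average, with sums of 7709 to 11341 against 9428 to 22433 and 0 called. In ileum 3 of the 10 fibroblast and stellate markers summed to 2088 to 2632 against 1519 to 1691. The authors' deposited table called Pdgfra and Reln higher and Thy1 lower there. There 4 of the 10 endothelial markers summed to 1792 to 1906 against 1096 to 1385, with Flt1 and Tek called higher in the authors' deposited table, while 6 of 11 intestinal epithelium markers summed to 164645 to 201571 against 227759 to 327148. The lymphocyte markers listed in ileum, Cd3e and Cd3g, summed to 108 to 400 against 272 to 569. The endothelial markers listed in liver were 4712 to 13504 bases long, Lyve1 in ileum had 2919 bases, and the macrophage markers called lower 1040 to 2471. Mylk had 11263 bases, Synm 7933 and Des 3754, while Reln had 23738, Pdgfra 10024 and Thy1 2995. Beside these marker calls, 35.8% of all listed genes were called higher and 32.6% lower in liver, and 27.1% and 21.2% in ileum. Markers not listed were not analysed here, and the part of these cell types in the members' values was not tested.

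The balance of long and short genes differed between single libraries. For each library it was taken as the median deviation of genes of at least 6000 bases minus that of genes of at most 1500 bases, on the log2 scale. In liver it was 0.63 to 0.82 in Khk KO, 0.06 in WT replicate 1 and -0.86, -1.45 and -0.72 in WT replicates 2 to 4. The members' median deviation followed the same order of groups, at 0.32 to 0.60 in Khk KO, -0.07 in WT replicate 1 and -0.60 to -0.26 in the others. In the intestine WT replicate 1 stood apart the other way, at -1.17 in ileum, -1.29 in duodenum and -1.26 in jejunum, where the other WT libraries ran from -0.61 to -0.13, from -0.24 to 0.07 and from -0.34 to -0.10. In duodenum the members' median was -0.75 in WT replicate 1 and -0.30 to 0.04 in the other WT libraries, and in ileum -0.53 against -0.30 to -0.17. In jejunum it was -0.20 in WT replicate 1, inside the -0.29 to -0.13 of the other WT libraries. The part of this balance in the members' fold changes beyond the corrected fit above was not tested.

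**Figure D4:**
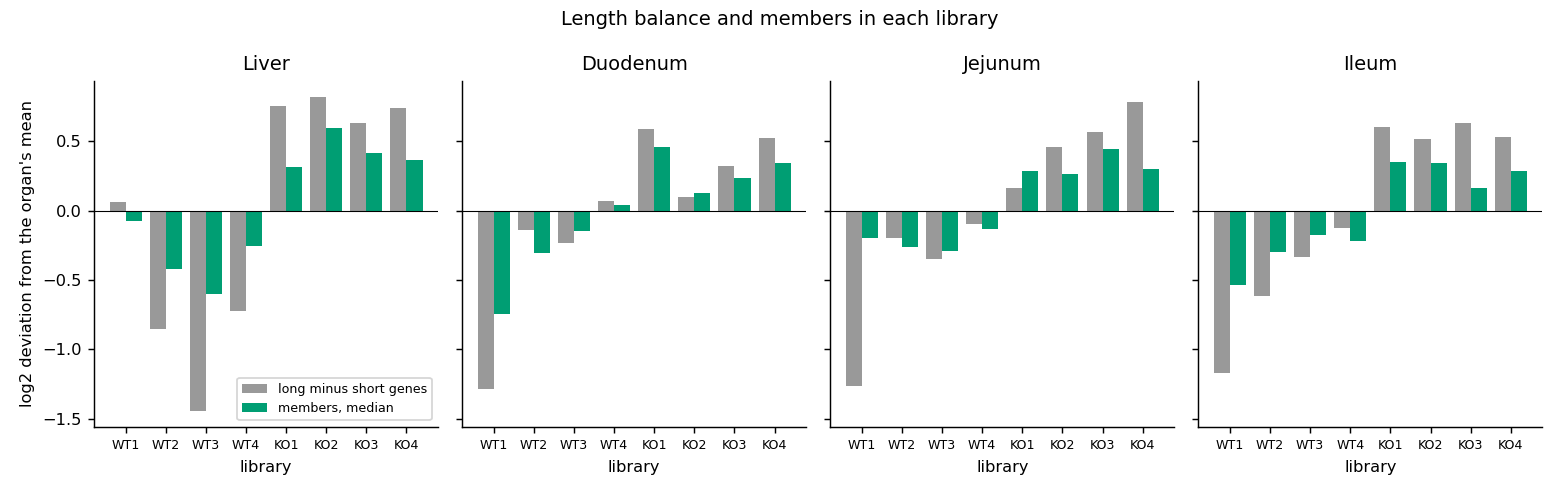
Balance of long against short genes (grey bars) and median deviation of the members (green bars) in each library, both on the log2 scale relative to the mean of the organ's 8 libraries, 1 panel per organ. Both bars are above 0 in each Khk KO library; WT replicate 1 is the WT library nearest to Khk KO in liver and the one farthest from it in duodenum and ileum.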

How the data were processed

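Polyadenylated RNA of 32 mouse libraries (4 organs, 2 genotypes, 4 per group) was analysed from 1 deposited table per organ. Per the file headers, the authors' tables hold raw read counts, a normalised signal (the count divided by 1 size factor per library), FPKM, the log2 fold change between genotypes (Khk KO relative to WT), its p-value and an adjusted p-value. Per the submitters' processing notes, HISAT2 2.0.5 and the builds GRCm38 and mm10 were used; the counting tool and the test are not given in the sources used here. Positions of all 81 member rows equalled GENCODE M21 on GRCm38. The ranks of the p-values gave the number of genes behind the authors' adjustment as 18225 for liver, 16034 for ileum, 15615 for duodenum and 9881 for jejunum, and an adjusted p-value of exactly 1 in a deposited table was read as not adjusted. The number of columns not mapped to a sample was 0.

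Read counts were tested per organ with edgeR 4.0.16 in R 4.3.3 (glmQLFit and glmQLFTest, filterByExpr), with the authors' size factors because TMM would be learned from genes selected to differ, and Benjamini-Hochberg adjustment over the authors' number of genes at a threshold of 0.05. The SE is the log2 fold change divided by the square root of F. DESeq2 1.42.0 was an alternative. The length trend was a lowess curve (span 0.5) of each library's log2 deviation (pseudocount 1) against log2 gene length, fitted where the mean was 10 or more and taken out as an offset. Gene length is the deposited value. The scripts were tested on simulated data. Within a group, the lowest chi-square per degree of freedom between libraries was 11.2, so their spread exceeds counting error. Other steps used Python 3.11.15, pandas 2.3.3 and statsmodels 0.14.6.

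The members, lists and tests were chosen with earlier results of these data known. The named members are, per organ and role, up to 4 with the largest deposited log2 fold change among those called and averaging 50 or more normalised counts; Tnc, Fn1, Fbn1 and Nid1; members in 3 or more tables; and in duodenum and jejunum all with that mean. Pathway genes follow the same rule. Others are named with values only, after those were seen. Alternatives are in the closing section.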

Additional observations from a re-analysis of the deposited data

Results flagged for a closer look

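Among 98 groups of 4 libraries (49 named member and organ pairs), 5 had a library set apart from the other 3 for the group's range. Its gap to the nearest library was 0.85 to 0.91 of that range, which can be a small difference in counts. Chance alone gives about 1 in 20, and 5 of 98 is about that share. In jejunum, WT replicate 1 had 445 normalised counts of Tnc against 45.7 to 100.03 in the other WT libraries, and 691 of Itgb6 against 253 to 320. Also in jejunum, Khk KO replicate 1 had 266 normalised counts of Itgb6 against 238 to 241. In ileum, WT replicate 4 had 672 normalised counts of Col12a1 against 600.01 to 607, and WT replicate 1 had 400 of Fbn1 against 717 to 748. WT replicate 1 accounts for 3 of the 5.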

How the results depend on the processing

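The members called by edgeR numbered 17 in liver, 10 in ileum, 0 in duodenum and 0 in jejunum. With the gene length trend taken out they numbered 2 in liver, 1 in duodenum and 1 in ileum. DESeq2 called 1 in duodenum, 1 in jejunum and 18 in ileum. Leaving out 1 library gave 0 to 24 in liver, 3 to 14 in ileum and 0 to 1 in both duodenum and jejunum, with the libraries named in the report for liver and ileum and WT replicate 1 behind the 1 call in both other organs. Over all genes tested it gave 19 to 4879 calls in liver and 452 to 2579 in ileum. TMM, DESeq2 size factors, no filter and a mean of at least 50 stayed within 1.5 times of each count. The genes behind a table were selected on all 8 libraries, so counts without a library are values, not a measure of stability. The difference from length neighbours kept its sign under every alternative run, and each time moved by less than its spread over Khk KO libraries; 1 of these alternatives, the ratio of mean normalised counts, was chosen after seeing the data.

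The replicate numbers in the titles showed no clear pairing of samples: the correlation of same-numbered deviations ran from -0.29 to 0.31. A library correlated best with its own number for 2 of 4 numbers in liver, 0 in ileum, 1 in duodenum and 1 in jejunum. With 4 numbers per organ, and genes listed because they differed, this cannot settle whether the numbers pair samples. With the replicate block edgeR called 12 of 33 members in liver and 4 of 28 in ileum, where it called 2266 of 5738 and 471 of 4788 genes tested. With the block and the length correction it called 1 member in liver, 1 in ileum and 0 in duodenum. Over all genes these calls were 636 of 5738, 281 of 4788 and 1 of 1406. Tnc in duodenum had an edgeR adjusted p of 0.464 with the block and 0.335 with both.

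With the length trend taken out, and with the block added to it, the log2 fold change turned negative for Itga1 (-0.25 and -0.26), Col4a3bp (-0.16 and -0.16), Itgav (-0.20 and -0.18) and Lama3 (-0.048 and -0.041) in liver, Itga6 (-0.0080 and -0.0053) and Itgb4 (-0.021 and -0.014) in jejunum, and Col4a3bp (-0.042 and -0.041) and Fbn1 (-0.041 and -0.030) in ileum. Beyond the length trend itself, the cause was not tested. Tnc in liver rests on 2 WT reads, and depth limits it.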
